A study of Mus musculus with 8 samples.

Results

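A group of 9 genes of the oncofetal programme was followed through 8 mouse RNA-seq libraries. They are the RNA-binding protein genes Lin28a, Lin28b, Igf2bp1, Igf2bp2 and Igf2bp3, the chromatin protein genes Hmga1 and Hmga2, the ubiquitin ligase gene Trim71 and the transcription factor gene Mycn. They were chosen by name, and for each one the RefSeq transcript with the highest total count stood for the gene. These 9 are among 23483 genes in the count table, and all 9 passed the filter on low counts that left 13966 genes to test. The cells were of strain C57BL/6 and at 5.5 mM glucose, in 4 groups of 2 libraries. Sca1 cells of the knock-down group carried a lentiviral short hairpin RNA (shRNA) against Set7, the lysine methyltransferase encoded by Setd7. Sca1 cells of the non-target control (NTC) group carried a non-targeting shRNA construct, and both transduced groups were selected with puromycin at 1 µg/ml. Untreated Sca1 cells carried no construct. Embryonic stem cells (mESC) were undifferentiated and grown with LIF. Per the protocols, Sca1-positive cells were taken with magnetic beads after 4 days without the cytokine LIF, at a purity above 80%, and were then grown for 2 to 8 doublings. A single hairpin sequence against Set7 was used. The labels do not say that the 2 libraries of a group came from separate cultures, and the p-values therefore cover the spread among these 8 libraries, which may be technical. Each library also has a code in the labels, with no word on what it marks. Code 34 occurs in all 4 groups, code 12 only in knock-down and NTC cells, and code 56 only in untreated Sca1 cells and mESC. Between a transduced and an untransduced group, code and group are thus partly confounded. Only code 34 holds both kinds of group, with 1 library per group, so their parts cannot be firmly told apart.

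Oncofetal genes are active in the embryo, are silent in most adult tissues and return in many tumours. LIN28A and LIN28B bind precursors of the let-7 microRNAs and block their maturation, and let-7 in turn represses messenger RNAs with matching sites in their 3' untranslated regions (UTRs). Transcripts of both LIN28 genes, of TRIM71, HMGA2 and the IGF2BP family are textbook let-7 targets, so LIN28 and let-7 form a double-negative circuit that holds cells in an early state. IGF2BP proteins bind and stabilise messenger RNAs such as that of the growth factor gene Igf2, and HMGA proteins bend AT-rich DNA. MYCN drives growth and ribosome production in stem and progenitor cells. In pluripotent cells LIN28A is abundant, and LIN28B and HMGA2 mark slightly later embryonic stages.

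Setd7 checked the labels. Its level was 14.0 and 10.7 CPM in knock-down cells, 60.6 and 66.5 CPM in NTC cells, 76.2 and 66.1 CPM in untreated Sca1 libraries and 11.2 and 16.5 CPM in mESC, where CPM is the read count scaled to a common library size with TMM factors. Both knock-down libraries lay below both NTC libraries and close to mESC. Ly6a, which encodes Sca1, stayed between 4.41 and 12.9 CPM in the 8 libraries and was not called in any of the 6 comparisons, and its levels in Sca1 cells overlapped those in mESC. Counts summed over genes were 2507938 to 5080266 per library. The 2 libraries of a group differed unevenly over genes, with a chi-square for each degree of freedom of 2.08 for knock-down, 1.54 for NTC, 40.3 for untreated Sca1 cells and 54.4 for mESC, and 1 shared estimate of spread served all tests.

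The let-7 family reads its targets through bases 2 to 8 of the mature strand, the seed. In the RefSeq microRNA table (GRCm38.p6), 11 mature arms of let-7 and miR-98, with 9 distinct sequences, share the seed GAGGUAG. Of these, 3 are shown to let the match in the members be read, with the seed in capitals.
mmu-let-7a-5p: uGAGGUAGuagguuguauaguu
mmu-let-7g-5p: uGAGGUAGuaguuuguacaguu
mmu-miR-98-5p: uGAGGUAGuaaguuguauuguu
The strands above come from Mirlet7a-1 at chr13:48538239-48538260 (minus strand), Mirlet7g at chr9:106178846-106178867 (plus strand) and Mir98 at chrX:151913229-151913250 (plus strand). The complement of the seed, CTACCTC, was searched on the sense strand of the annotated 3' UTR of each member's matched GENCODE vM21 transcript. It occurred in 8 of the 9 members, against 7.495% of the 20173 UTRs of all genes read the same way. Most members are known let-7 targets, so matches in them follow from the choice of genes. That share also covers UTRs of all lengths. Mycn had no match in its UTR of 913 bases.

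Match numbers differed within families, as the map of seed matches shows. Lin28b, Igf2bp1, Hmga2 and Trim71 held 4 matches each, Lin28a held 2, and Igf2bp2, Igf2bp3 and Hmga1 held 1 each. For Trim71 the GENCODE transcript runs past the RefSeq gene, whose lower bound is chr9:114511268. Its matches 3 and 4, at chr9:114509047-114509076 and chr9:114509021-114509050, lie outside that gene. The Trim71 counts are those of the RefSeq transcript. Only 10 of the 20173 UTRs held 4 or more. Long UTRs meet a 7-base string more often, so each member was also set beside UTRs between 0.8 and 1.2 times its length. Among 1697 UTRs of about the length of Hmga2 (2977 bases), 16.1% held a match and 2, Hmga2 included, held 4 or more. For Igf2bp3 (2119 bases) 13.1% of UTRs of like length held a match, and for Trim71 (5512 bases by GENCODE) 29.7% did. The windows of the 2 genes that were lower in knock-down than in NTC cells, and the first window of Lin28b, are given with the match in capitals. An A after the match, the base that Argonaute favours opposite the first let-7 base, follows in the first Hmga2 window, the Igf2bp3 window and the Lin28b window.
Hmga2 match 1: ggggcgccgacattcaatttCTACCTCa
Hmga2 match 2: caataatccccactcctcaataCTACCTCt
Hmga2 match 3: ggacttcctgatttgcaaggaaCTACCTCc
Hmga2 match 4: gttgtacaatcaaaacacactaCTACCTCt
Igf2bp3 match 1: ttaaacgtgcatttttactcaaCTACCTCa
Lin28b match 1: tcccttcacccgggcgggaagtCTACCTCa
All 6 windows are on the minus strand of GRCm38. The Hmga2 windows are chr10:120364224-120364251, chr10:120362987-120363016, chr10:120362549-120362578 and chr10:120361691-120361720. The Igf2bp3 window is chr6:49086787-49086816 and the Lin28b window is chr10:45381022-45381051. A match describes the sequence and does not show that let-7 acts there in these cells. Match number did not order the log2 differences between knock-down and NTC cells. With 4 matches they were -1.60 for Hmga2, -0.47 for Lin28b and 0.18 for Igf2bp1. Trim71, with 4 matches by GENCODE of which matches 3 and 4 lie outside the RefSeq gene, had 0.31. With 2 matches Lin28a had 0.14. With 1 match they were -0.76 for Igf2bp3, -0.25 for Igf2bp2 and 0.27 for Hmga1. Of these, only Hmga2 and Igf2bp3 were called.

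**Figure D1:**
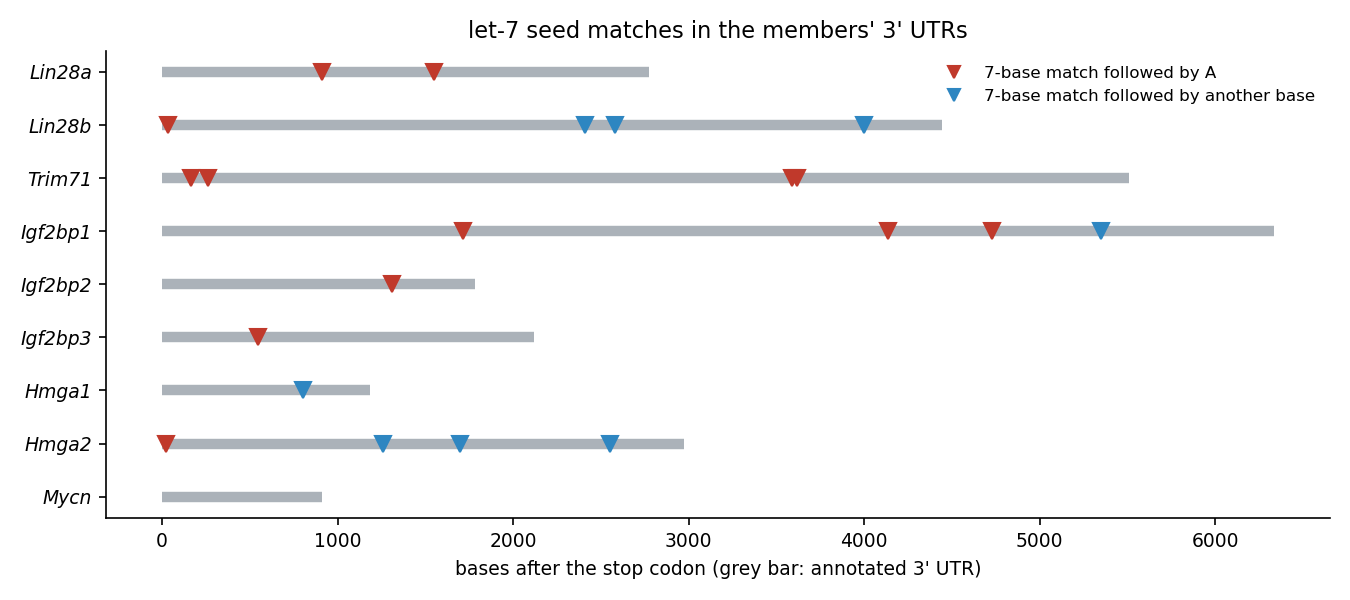
Annotated 3' UTR of each member (grey bar, bases after the stop codon on the x axis) with its let-7 seed matches; red triangles are matches followed by A and blue triangles are matches followed by another base. Trim71 has 4 red matches, of which matches 3 and 4 lie outside its RefSeq gene. Hmga2 has 1 red match at base 21 and 3 blue ones, and Mycn has none.

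The poly(A) libraries did not measure mature let-7. The 12 let-7 and miR-98 hairpin genes of the table had totals of 0 to 12 counts over all 8 libraries, and poly(A) selection does not capture such short RNAs, so no level of let-7 is given here. Mir100hg, the host transcript of a cluster that includes a let-7a gene, had 3 and 8 counts in knock-down cells, 44 and 72 in NTC cells, 27 and 12 in untreated Sca1 libraries and 11 and 22 in mESC. Between knock-down and NTC cells its log2 fold change was -3.14 ± 0.45 (SE) (edgeR quasi-likelihood F test, Benjamini-Hochberg adjusted p = 7.94e-05).

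All members called between untreated Sca1 cells and mESC were higher in the Sca1 cells. In untreated Sca1 cells 5 of the 9 members were higher than in mESC, none was called lower and 4 did not pass. At an unadjusted p under 0.05 edgeR had 1 lower, Trim71, and DESeq2 called 0 lower. In that comparison 35.5% of all tested genes were called, 18.7% higher and 16.8% lower. The median log2 fold change of the 9 was 0.58, beside -0.0069 over all tested genes. In knock-down cells 2 of the 9, Hmga2 and Igf2bp3, were lower than in NTC cells, none was called higher and 7 did not pass. This compares with 14.3% of all genes called, 4.25% higher and 10.1% lower. Neither edgeR at an unadjusted p under 0.05 nor DESeq2 had a member higher (0 each), and the unadjusted p also passed for Lin28b, on the lower side. The median of the 9 was 0.050, beside -0.0002 over all genes. In NTC cells 1 of the 9, Igf2bp3, was lower than in untreated Sca1 cells, where 4.98% of all genes were called and 1.1% were lower. The plot of levels gives every library.

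**Figure D2:**
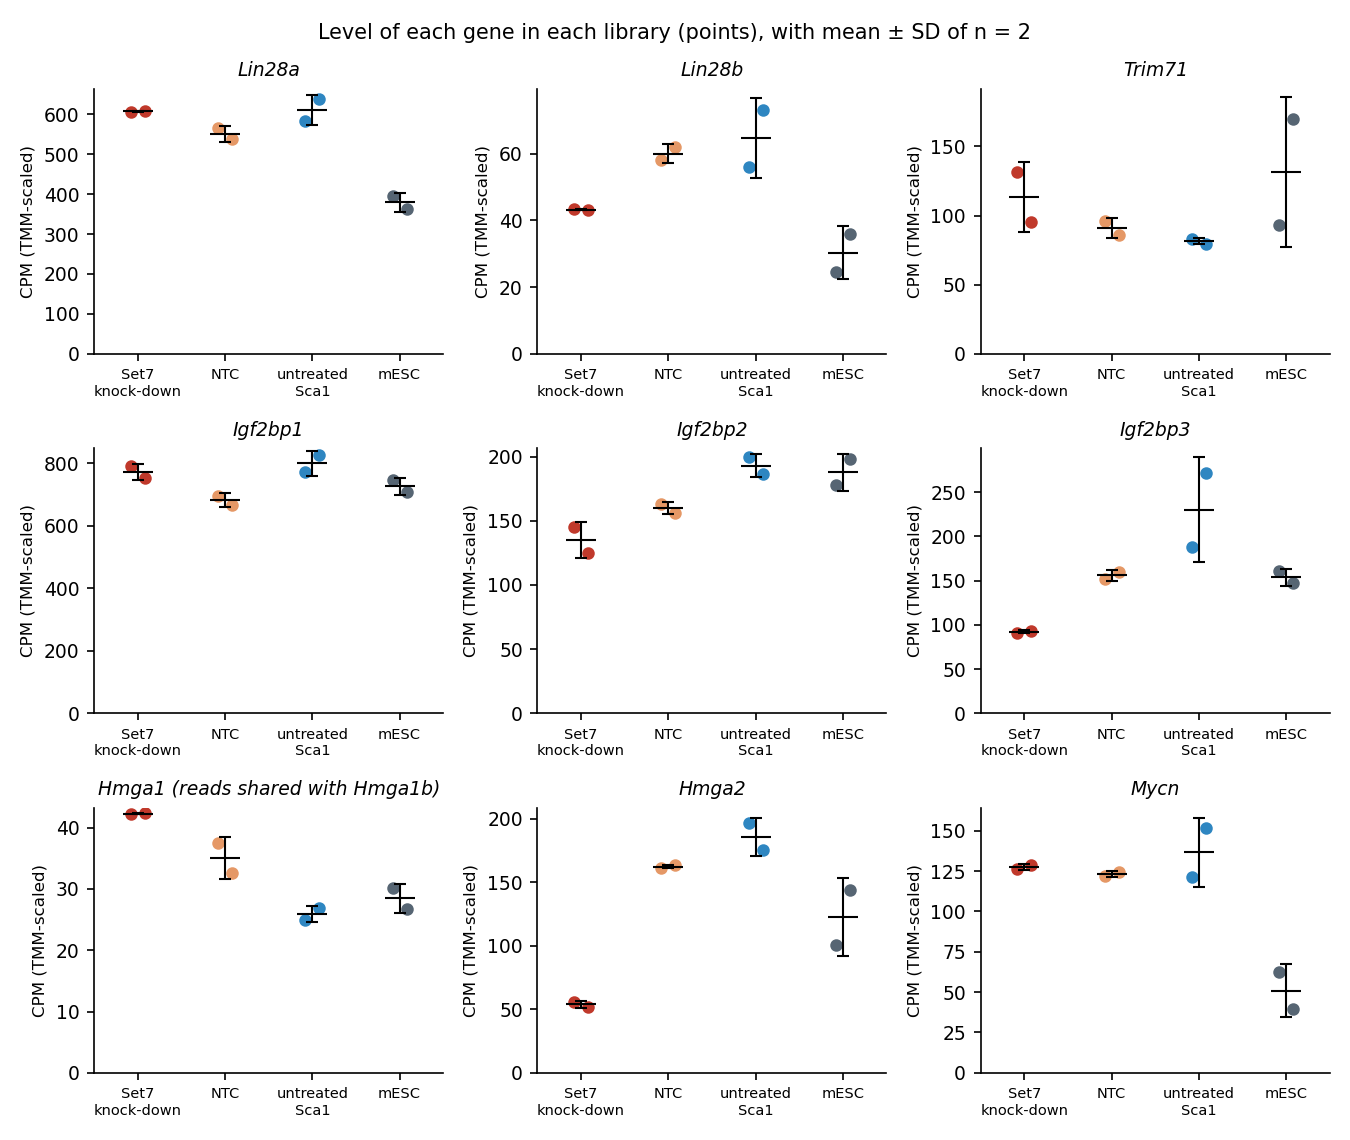
TMM-scaled CPM of each member (y axis, from 0, own scale per panel) in knock-down, NTC, untreated Sca1 and mESC libraries (x axis); points are libraries and bars are mean ± SD of n = 2. Hmga2 sits at 51.8 to 55.9 CPM in knock-down cells and at or above 100.5 CPM in the other 6 libraries, and Mycn and Lin28a sit lowest in mESC.

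Lin28a, the LIN28 paralog of pluripotent cells, was the higher of the 2 paralogs per transcript length. Its level was 606 and 609 CPM in knock-down cells, 565 and 537 CPM in NTC cells, 584 and 638 CPM in untreated Sca1 libraries and 396 and 363 CPM in mESC. All 6 Sca1 libraries lay above both mESC libraries, and the 3 Sca1 groups lay close together. Lin28a was 1.61-fold higher in untreated Sca1 cells than in mESC, a log2 fold change of 0.69 ± 0.12 (edgeR quasi-likelihood F test, Benjamini-Hochberg adjusted p = 0.000167). The 95% interval of that change, 0.44 to 0.93, reaches below 1.5-fold, and a test against 1.5-fold did not call it (edgeR adjusted p = 0.297). Between knock-down and NTC cells the log2 difference was 0.14 with a 95% interval of -0.10 to 0.38 (edgeR adjusted p = 0.482).

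Lin28b, the paralog that acts on let-7 precursors in the nucleus as well, was the lower of the pair. It stood at 43.3 and 43.2 CPM in knock-down cells, 58.0 and 62.0 CPM in NTC cells, 56.1 and 73.2 CPM in untreated Sca1 libraries and 24.7 and 36.0 CPM in mESC. All Sca1 libraries exceeded both mESC libraries, and both knock-down libraries lay below the NTC and untreated Sca1 libraries. In untreated Sca1 cells Lin28b was 2.11-fold higher than in mESC (log2 1.08 ± 0.19, edgeR adjusted p = 0.000221), and it was called there in 17 of 17 settings tried. Between knock-down and NTC cells its log2 difference was -0.47 ± 0.18, which did not pass (edgeR adjusted p = 0.0883), and 5 of 17 settings called it, among them the fits without mESC replicate 1 (0.0200) or 2 (0.0189). Against untreated Sca1 cells the knock-down value was -0.57 ± 0.18 (edgeR adjusted p = 0.0419), a call held in 7 of 17 settings. It was lost without either knock-down library (edgeR adjusted p = 0.187 and 0.223), either NTC library (0.0712 and 0.0708) or untreated replicate 2 (0.281), with library totals as the scale (0.0893) and in DESeq2 (0.0923).

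As a share of summed LIN28 transcript per length, Lin28b made up 4.43% and 4.40% in knock-down cells, 6.25% and 6.97% in NTC cells, 5.87% and 6.93% in untreated Sca1 libraries and 3.88% and 6.05% in mESC. The knock-down shares lay below the NTC and untreated Sca1 shares, while those of mESC overlapped the knock-down and untreated Sca1 shares. Lin28a therefore provided over 93% of LIN28 transcript in every library.

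Trim71, a stem cell ubiquitin ligase and RNA-binding repressor that has a classic let-7 target as its worm counterpart, varied most between the mESC libraries. It stood at 131 and 95.4 CPM in knock-down cells, 96.0 and 85.6 CPM in NTC cells, 82.9 and 79.8 CPM in untreated Sca1 libraries and 93.0 and 170.1 CPM in mESC. Its lowest levels were in untreated Sca1 cells, which did not overlap with mESC. The log2 difference between untreated Sca1 cells and mESC was -0.69 ± 0.26 and did not pass (edgeR adjusted p = 0.0695). That value rests on mESC replicate 2, without which it was -0.19 (edgeR adjusted p = 0.421). The library codes, whose meaning is not given, split this comparison. Within code 34 the log2 ratio was -0.16, and within code 56, which holds that library, it was -1.09. In 8 of 17 other settings the difference was called. These were the fits without mESC replicate 1, at -1.06 (edgeR adjusted p = 2.08e-05), without knock-down replicate 1 (0.0339) or 2 (0.0332), with library totals as the scale (0.0346), without a filter (1.38e-05), on the 2 groups alone (0.0472), on summed transcripts (0.0482) and with a term for the number in the labels (0.0178). In the main fit, over all 8 libraries with TMM factors and the filter on low counts, Trim71 did not pass in any of the 6 comparisons. Of 17 other settings, 2 called it lower in NTC cells than in mESC, among them the fit without a filter (-0.53, edgeR adjusted p = 0.000852). For knock-down against untreated Sca1 cells 4 of 17 called it higher, among them the fit without a filter (0.47, edgeR adjusted p = 0.0118). Knock-down cells were called lower than mESC in 1 of 17, without mESC replicate 1 (-0.60).

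The 3 IGF2BP genes encode closely related proteins that carry messenger RNAs in granules and shield them from decay. Igf2bp1 had the highest level per length of the 3 in every library. It stood at 791 and 754 CPM in knock-down cells, 696 and 665 CPM in NTC cells, 772 and 826 CPM in untreated Sca1 libraries and 745 and 706 CPM in mESC. No comparison called it in the fit of all 8 libraries. Its largest log2 difference there was -0.23 between NTC and untreated Sca1 cells (95% interval -0.48 to 0.019, edgeR adjusted p = 0.286). Between knock-down and NTC cells the difference was 0.18 with a 95% interval of -0.068 to 0.43, so a change of 1.5-fold lay outside it. A fit on these 2 groups alone called that difference (edgeR adjusted p = 0.0190).

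Igf2bp2, the family member that persists in adult tissue and is linked to metabolism, stood at 145 and 125 CPM in knock-down cells, 163 and 156 CPM in NTC cells, 199 and 186 CPM in untreated Sca1 libraries and 177 and 198 CPM in mESC. The knock-down libraries were the lowest of the 8. Igf2bp2 was lower in knock-down cells than in untreated Sca1 cells, with a log2 fold change of -0.52 ± 0.12 (edgeR adjusted p = 0.00691), and lower than in mESC (-0.48 ± 0.12, edgeR adjusted p = 0.00647). These comparisons share the knock-down libraries. Neither was called without knock-down replicate 2 (edgeR adjusted p = 0.158 and 0.152) or with library totals as the scale (0.0892 and 0.125). Against NTC cells the value was -0.25 ± 0.12 (edgeR adjusted p = 0.205). A fit on these 2 groups alone called it (edgeR adjusted p = 0.0146).

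Igf2bp3, a paralog used as a tumour marker, was the IGF2BP gene that differed most. Its level was 90.8 and 93.4 CPM in knock-down cells, 151 and 160.1 CPM in NTC cells, 188 and 272 CPM in untreated Sca1 libraries and 160.3 and 147 CPM in mESC. Knock-down cells lay below the other 3 groups, untreated Sca1 cells lay above them, and NTC and mESC libraries overlapped. Relative to NTC cells Igf2bp3 was 1.69-fold lower in knock-down cells, with a log2 fold change of -0.76 ± 0.15 (edgeR quasi-likelihood F test, Benjamini-Hochberg adjusted p = 0.00185). The log2 ratio was -0.73 within library code 12 and -0.77 within code 34. The call was lost without knock-down replicate 2, where the value was -0.78 (edgeR adjusted p = 0.0501), and against a threshold of 1.5-fold (0.486), and 15 of 17 settings held it.

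The 2 control groups differed in Igf2bp3 as well. NTC cells had a lower level than untreated Sca1 cells, by a log2 fold change of -0.56 ± 0.14 (edgeR adjusted p = 0.0320), and neither group carried the Set7 hairpin. The libraries behind that value were uneven. Within code 34 the log2 ratio of NTC to untreated Sca1 cells was -0.23, and without untreated replicate 2, which held 272 CPM, the difference was -0.28 (edgeR adjusted p = 0.295). In all, 8 of 17 settings called it. It was also lost without NTC replicate 1 (0.303) or 2 (0.191), without knock-down replicate 1 (0.0848) or 2 (0.0850) and with library totals as the scale (0.170). The higher level in untreated Sca1 cells over mESC, 0.58 ± 0.14 (edgeR adjusted p = 0.00464), also rested in part on that library and was 0.30 without it (edgeR adjusted p = 0.102). Relative to untreated Sca1 cells, knock-down cells were lower with a log2 fold change of -1.31 ± 0.15 (edgeR adjusted p = 9.58e-06), and 17 of 17 settings called this.

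The makeup of the IGF2BP family differed accordingly. Per transcript length, Igf2bp1 formed 61.9% and 62.7% of the summed family in knock-down cells, 52.0% and 50.8% in NTC cells, 49.4% and 47.2% in untreated Sca1 libraries and 51.9% and 49.9% in mESC. Both knock-down shares exceeded all others. Igf2bp3 formed 13.7% and 15.0% in knock-down cells, 21.8% and 23.6% in NTC cells, 23.2% and 29.9% in untreated Sca1 libraries and 21.53% and 20.02% in mESC. The share of Igf2bp2 lay between 22.3% and 30.05% in the 8 libraries.

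**Figure D3:**
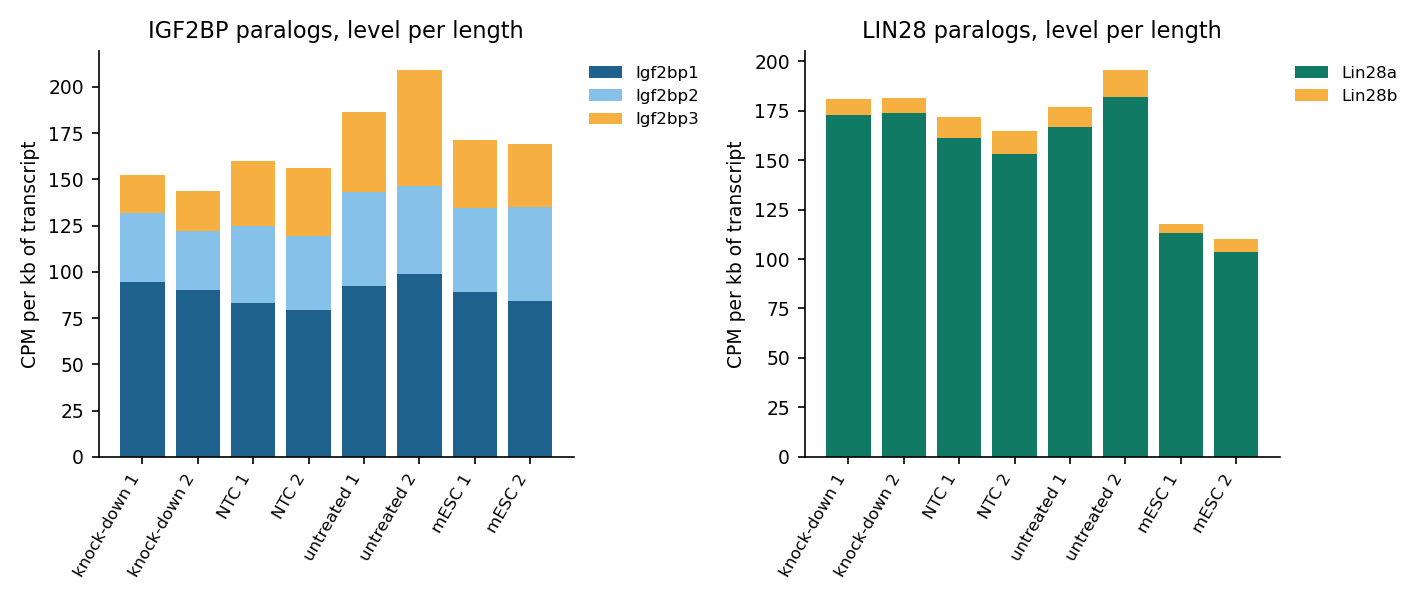
Stacked CPM per kb of transcript (y axis) of the IGF2BP genes (left) and the LIN28 genes (right) in each of the 8 libraries (x axis). Igf2bp1 and Lin28a are the largest parts in every library, and the Igf2bp3 part is smallest in the knock-down libraries, at 20.9 and 21.5 CPM per kb.

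Hmga2, an embryonic DNA-bending protein of mesenchyme and stem cells, was the member with the largest difference in knock-down cells. It stood at 55.9 and 51.8 CPM in knock-down cells, 161 and 163 CPM in NTC cells, 196 and 175 CPM in untreated Sca1 libraries and 100.5 and 144 CPM in mESC. The knock-down libraries lay far below all 6 others, and the untreated Sca1 libraries were the highest. Hmga2 was 3.02-fold lower in knock-down than in NTC cells, with a log2 fold change of -1.60 ± 0.16 and a 95% interval of -1.92 to -1.27 (edgeR quasi-likelihood F test, Benjamini-Hochberg adjusted p = 8.91e-07). The log2 ratio was -1.52 within library code 12 and -1.65 within code 34. All 17 settings called it, with values of -1.65 to -1.54.

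The difference also held against the other groups. Hmga2 was lower in knock-down cells than in untreated Sca1 cells (log2 -1.79 ± 0.16, edgeR adjusted p = 6.18e-07) and lower than in mESC (log2 -1.19 ± 0.16, edgeR adjusted p = 2.31e-05), each called in 17 of 17 settings, with the knock-down libraries shared. Untreated Sca1 cells had 1.52-fold more Hmga2 than mESC (log2 0.60 ± 0.15, edgeR adjusted p = 0.00364), though the log2 ratio was 0.96 within code 34 and 0.28 within code 56. Between NTC and untreated Sca1 cells the difference was not detectable, at -0.20 with a 95% interval of -0.50 to 0.11 (edgeR adjusted p = 0.473). The call of Hmga2 as higher in NTC cells than in mESC (0.41 ± 0.14, edgeR adjusted p = 0.0354) held in 8 of 17 settings, and the value was 0.17 without mESC replicate 1 (0.283). It was also lost without NTC replicate 1 (0.135) or 2 (0.148), without knock-down replicate 1 (0.0610) or 2 (0.0637) and in DESeq2 (0.0744).

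Hmga1, the family member of dividing cells in general, could be read less firmly. Its 14 RefSeq rows held identical counts, and the 2 rows of its near-identical copy Hmga1b differed from them by at most 2 counts in any library, so reads of these genes could not be told apart. With that limit, the level was 42.3 and 42.3 CPM in knock-down cells, 37.5 and 32.7 CPM in NTC cells, 25.0 and 26.9 CPM in untreated Sca1 libraries and 30.1 and 26.8 CPM in mESC. Knock-down libraries were the highest of the 8 and untreated Sca1 and mESC libraries overlapped. Hmga1 was higher in knock-down than in untreated Sca1 cells by 0.71 ± 0.18 on the log2 scale (edgeR adjusted p = 0.0106) and higher than in mESC by 0.57 ± 0.17 (edgeR adjusted p = 0.0162). Without knock-down replicate 1 the adjusted p of these was 0.0672 and 0.0824, and without replicate 2 it was 0.0935 and 0.109. The first was also lost without untreated replicate 1 (0.0638) and the second without mESC replicate 2 (0.0639) and in DESeq2 (0.0708). Against NTC cells Hmga1 did not pass (0.27 ± 0.16, edgeR adjusted p = 0.316), while Hmga2 was lower there.

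Mycn, the MYC family member prominent in the early embryo, separated mESC from all Sca1 cells. It stood at 126 and 129 CPM in knock-down cells, 122 and 125 CPM in NTC cells, 121 and 152 CPM in untreated Sca1 libraries and 62.6 and 39.3 CPM in mESC. Both mESC libraries lay below all 6 Sca1 libraries, among which untreated replicate 2 was the highest. Mycn was 2.67-fold higher in untreated Sca1 cells than in mESC (log2 1.42 ± 0.17, edgeR adjusted p = 7.15e-06), 2.42-fold higher in NTC cells and 2.51-fold higher in knock-down cells (edgeR adjusted p = 1.59e-05 and 2.32e-05). These 3 comparisons share the mESC libraries, and each was called in 17 of 17 settings. Between knock-down and NTC cells the log2 difference was 0.050 with a 95% interval of -0.29 to 0.39 (edgeR adjusted p = 0.885).

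**Figure D4:**
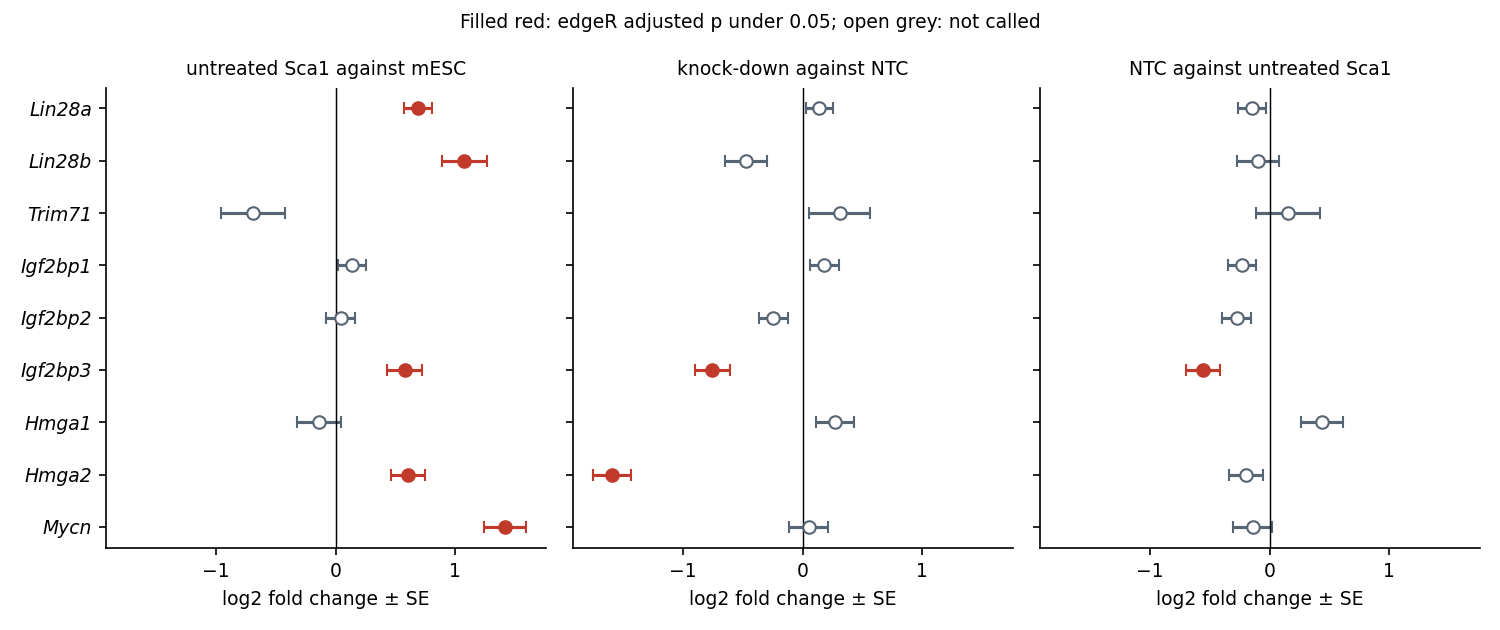
Log2 fold change ± SE of each member (x axis) for 3 comparisons, which from left to right set untreated Sca1 cells beside mESC, knock-down beside NTC cells, and NTC beside untreated Sca1 cells; red points have an edgeR adjusted p under 0.05 and grey open points do not. Lin28a, Lin28b, Igf2bp3, Hmga2 and Mycn are red and above 0 on the left, Hmga2 (-1.60) and Igf2bp3 (-0.76) are red and below 0 in the middle.

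The order of the 4 groups thus had several shapes among the members. Mean levels ranked untreated Sca1 first for Lin28a, Lin28b, the 3 IGF2BP genes, Hmga2 and Mycn, knock-down first for Hmga1, and mESC first for Trim71. In the order untreated Sca1, NTC, mESC, knock-down of Hmga2, the step between untreated Sca1 and NTC cells was not called and the other steps were. In the order untreated Sca1, NTC, mESC, knock-down of Igf2bp3, the step between NTC cells and mESC was not called. For Lin28a, where untreated Sca1, knock-down and NTC cells preceded mESC, the step to mESC alone was called. For Lin28b, in the order untreated Sca1, NTC, knock-down, mESC, no step between neighbours was called, although untreated Sca1 and NTC cells each differed from mESC. Its step from mESC to knock-down cells was 0.51 ± 0.19 (edgeR adjusted p = 0.0548), and 6 of 17 other settings called that step. For Mycn the last step, to mESC, was called, and for Igf2bp1, Igf2bp2, Hmga1 and Trim71 no step between neighbours was.

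Against mESC as a common baseline, knock-down cells had 3 members higher (Lin28a, Hmga1 and Mycn) and 3 lower (Igf2bp2, Igf2bp3 and Hmga2), where 25.9% of all genes were called, 13.5% higher and 12.4% lower. At an unadjusted p under 0.05 edgeR also had Lin28b higher, and DESeq2 called 2 higher, Lin28a and Mycn. NTC cells had 4 higher (Lin28a, Lin28b, Hmga2 and Mycn) and none lower, where 35.1% of all genes were called, 19.6% higher and 15.5% lower. No member was lower there at an unadjusted p under 0.05 or in DESeq2 (0 each). Trim71 was called lower there without a filter (-0.53, edgeR adjusted p = 0.000852), and its value was -0.91 without mESC replicate 1. Against untreated Sca1 cells the knock-down had 1 member higher (Hmga1) and 4 lower (Lin28b, Igf2bp2, Igf2bp3 and Hmga2), where 17.2% of all genes were called, 7.34% higher and 9.89% lower. These comparisons share libraries and are not independent of one another.

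Across genes within a library, per transcript length, Lin28a was the most abundant member, at 173 CPM per kb in knock-down, 157 in NTC, 174 in untreated Sca1 libraries and 108 in mESC. Igf2bp1 followed at 92.2 in knock-down, 81.2 in NTC, 95.4 in untreated Sca1 libraries and 86.6 CPM per kb in mESC. Lin28b had the lowest level per length of the 9 in knock-down cells (8.01 CPM per kb) and in mESC (5.62 CPM per kb), where Trim71 stood at 12.2 and 14.1 CPM per kb. In untreated Sca1 cells Trim71 was lowest, at 8.72 CPM per kb beside 12.0 for Lin28b, and in NTC cells at 9.73 beside 11.1. The Trim71 length is that of a GENCODE transcript that runs past the RefSeq gene, so its level per length may be too low. The rank of Trim71 below Lin28b is therefore not firm.

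For each member the 3 genes with the most similar log2 CPM over the 8 libraries were taken from 8970 genes with a mean of at least 20 CPM in some group. The libraries fall into 4 groups, so Pearson's r here describes likeness over group differences more than over independent samples. The genes closest to Hmga2 were Serpine2 (r = 0.991), which encodes a secreted protease inhibitor, Rnf157 and Plekhm2. Serpine2 stood at 29.7 CPM in knock-down, 84.4 in NTC, 85.5 in untreated Sca1 libraries and 58.3 CPM in mESC on average. Lin28a was closest to Lmo4 (r = 0.994), Errfi1 and the Wnt ligand gene Wnt8a, and Mycn to Mapk12 (r = 0.986), Lrrc42 and the claudin gene Cldn7. Lin28b was closest to the BMP signal transducer gene Smad1 (r = 0.987), Ptpn13 and Hs6st2. Igf2bp1 was closest to the kinetochore gene Spc25 (r = 0.974), Igf2bp2 to the myosin gene Myo1e (r = 0.983), Igf2bp3 to Ube2d1 (r = 0.966) and Trim71 to the glycosyltransferase gene Mgat5 (r = 0.976). Hmga1 was closest to Hmga1b, which shares its reads.

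Markers of other cell types moved with some of these results. Fibroblast markers summed to 94.7 and 83.6 CPM in knock-down cells, 1872 and 1801 CPM in NTC cells, 757 and 836 CPM in untreated Sca1 libraries and 27.4 and 22.4 CPM in mESC. Of the 8 markers all were detected in NTC and untreated Sca1 libraries, Postn was at 0 in both knock-down libraries and Lum in 1, and Lum, Dcn and Postn were at 0 in mESC. The 8 smooth muscle markers summed to 169 and 175 CPM in knock-down, 607 and 633 in NTC, 975 and 597 in untreated Sca1 libraries and 39.3 and 31.8 CPM in mESC. Hmga2 and Igf2bp3 were lower in knock-down than in NTC cells together with both sums, but they did not share the low position of those sums in mESC. The part of cell makeup in the members' values was not tested, and in bulk RNA fewer cells of a type and less RNA per cell cannot be told apart.

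The 10 pluripotency markers, all detected everywhere, summed to 3345 and 3129 CPM in knock-down, 2519.8 and 2437 in NTC, 2666 and 2337 in untreated Sca1 libraries and 4093 and 3714 CPM in mESC. Lin28a and Mycn were thus higher in Sca1 cells, where that sum was lower. Trophoblast markers summed to 432 and 419 CPM in knock-down, 432 and 431 in NTC, 396 and 413 in untreated Sca1 libraries and 89.5 and 68.3 CPM in mESC, the same split as Lin28a and Mycn, with Hand1 at 0 in both mESC libraries and Elf5 in 1. Visceral endoderm markers summed to 468 and 531 CPM in knock-down, 434 and 441 in NTC, 242 and 185 in untreated Sca1 libraries and 745 and 807 CPM in mESC, with Afp, Ttr or Apoa1 at 0 in some libraries. Neural markers summed to 112 and 107 CPM in knock-down, 248 and 213 in NTC, 225 and 217 in untreated Sca1 libraries and 68.5 and 64.8 CPM in mESC. Endothelial markers summed to 49.8 to 186 CPM and blood markers to 1.65 to 4.57 CPM in the 8 libraries, with Hbb-bt at 0 in all of them. Their part was not tested either.

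Genes around the members were read from named lists. For scale, in untreated Sca1 cells against mESC 18.7% of all tested genes were higher and 16.8% lower. In knock-down against NTC cells 4.25% were higher and 10.1% lower. Against untreated Sca1 cells 7.34% were higher and 9.89% lower in knock-down cells, and 3.88% higher and 1.1% lower in NTC cells. The list counts below were not tested against these shares, and some lie near them. Of 32 tested let-7 targets outside the 9, 16 were higher and 1 was lower in untreated Sca1 cells when set beside mESC, with a median log2 fold change of 0.44 beside -0.0069 over all genes. Among them the retrotransposon-derived placental gene Peg10 was higher by 3.73 ± 0.14 on the log2 scale, the insulin receptor substrate gene Irs2 by 3.05 ± 0.26, the phosphatase gene Dusp4 by 1.96 ± 0.19 and Arid3a by 2.06 ± 0.20. In knock-down against NTC cells 2 of the 32 were higher and 5 lower (median -0.14). Among the lower were Ccnd2 (-2.37 ± 0.27, edgeR adjusted p = 0.00014) and Arid3a (-0.56 ± 0.17, edgeR adjusted p = 0.0362). Among the higher was Rictor (0.76 ± 0.15, edgeR adjusted p = 0.00153). Of the 35 listed targets, 25 held the 7-base match in their UTR. Among 21 genes of let-7 processing, 3 were higher and 1 lower in knock-down than in NTC cells, namely the pri-microRNA nuclease gene Drosha (0.61 ± 0.12), Hnrnpa1 (0.69 ± 0.16) and the Argonaute gene Ago2 (0.48 ± 0.16, edgeR adjusted p = 0.0496), and the Dicer partner gene Prkra (-0.90 ± 0.22). Of the 21, 3 were higher and 2 lower between untreated Sca1 cells and mESC.

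The IGF axis was read against both control groups, which differed from each other in some of its genes. In knock-down against NTC cells 8 of 15 tested genes of the PLAG and IGF list were lower and none higher (median -0.66, beside -0.0002 over all genes). Against untreated Sca1 cells the knock-down had 5 of the 15 lower and none higher (median -0.50), and NTC cells themselves had 3 higher than untreated Sca1 cells and none lower (median 0.26). These 3 were the receptor genes Igf2r (1.28 ± 0.15) and Igf1r (0.69 ± 0.16) and Igfbp5 (1.07 ± 0.20). Igf2r averaged 285 CPM in knock-down, 695 in NTC and 287 CPM in untreated Sca1 cells, so its knock-down level lay below NTC cells and beside untreated Sca1 cells. In untreated Sca1 cells 11 were higher and 1 lower than in mESC (median 0.94). Igf2, the fetal growth factor whose messenger RNA gave the IGF2BP proteins their name, averaged 89.6 ± 4.16 CPM in knock-down, 1099.8 ± 33.9 in NTC, 862 ± 334 in untreated Sca1 libraries and 10.8 ± 2.52 CPM in mESC (SD, n = 2 each). Its log2 fold change in knock-down against NTC cells was -3.62 ± 0.23 (edgeR adjusted p = 5.70e-07). The values were -1.71 ± 0.15 for the IGF-binding protein gene Igfbp4, -2.0 ± 0.26 for the insulin receptor substrate gene Irs1 and -1.27 ± 0.14 for the imprinted adaptor gene Grb10.

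A list of known IGF2BP client transcripts had 4 of 14 lower and none higher in knock-down than in NTC cells. They were Igf2, Igf1r, Ptgs2 and the hyaluronan receptor gene Cd44 (-2.35 ± 0.26). Igf1r averaged 80.6 CPM in knock-down, 127.7 in NTC and 79.9 CPM in untreated Sca1 cells, so the NTC level stood apart from both others. The median of that list was -0.043. In untreated Sca1 cells 5 of the 14, Ptgs2 among them, were higher and 1 was lower when set beside mESC (median 0.22). Of 15 IGF2BP partner genes, Pabpc1, the poly(A)-binding protein gene, was higher in knock-down than in NTC cells by 0.70 ± 0.13 (edgeR adjusted p = 0.00137), and none was lower, while 1 was higher and 1 lower between untreated Sca1 cells and mESC. The list of other oncofetal genes had 5 of 15 lower and 1 higher in knock-down than in NTC cells (median -0.30). Among those lower were Dlk1 (-5.75 ± 0.19), Igf2 (-3.62 ± 0.23), the glypican gene Gpc3 (-2.41 ± 0.12) and Mest (-1.71 ± 0.12). Peg10 did not pass (-0.30 ± 0.13, edgeR adjusted p = 0.140). Against untreated Sca1 cells 7 of the 15 were lower and 1 higher in knock-down cells (median -0.39). The NTC level of Dlk1 and Gpc3 was itself above that of untreated Sca1 cells, by 2.03 ± 0.14 and 1.15 ± 0.12 on the log2 scale (edgeR adjusted p = 6.12e-07 and 5.77e-05). Dlk1 averaged 7.86 CPM in knock-down, 423.6 in NTC and 102.9 CPM in untreated Sca1 cells, and Gpc3 averaged 100.7 CPM in knock-down, 538.8 in NTC and 243 CPM in untreated Sca1 cells. In untreated Sca1 cells 12 of the 15 were higher and 1 lower than in mESC (median 1.01). Several of these genes are imprinted and Igf2 stands in 3 of the lists, so the lists are not independent.

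**Figure D5:**
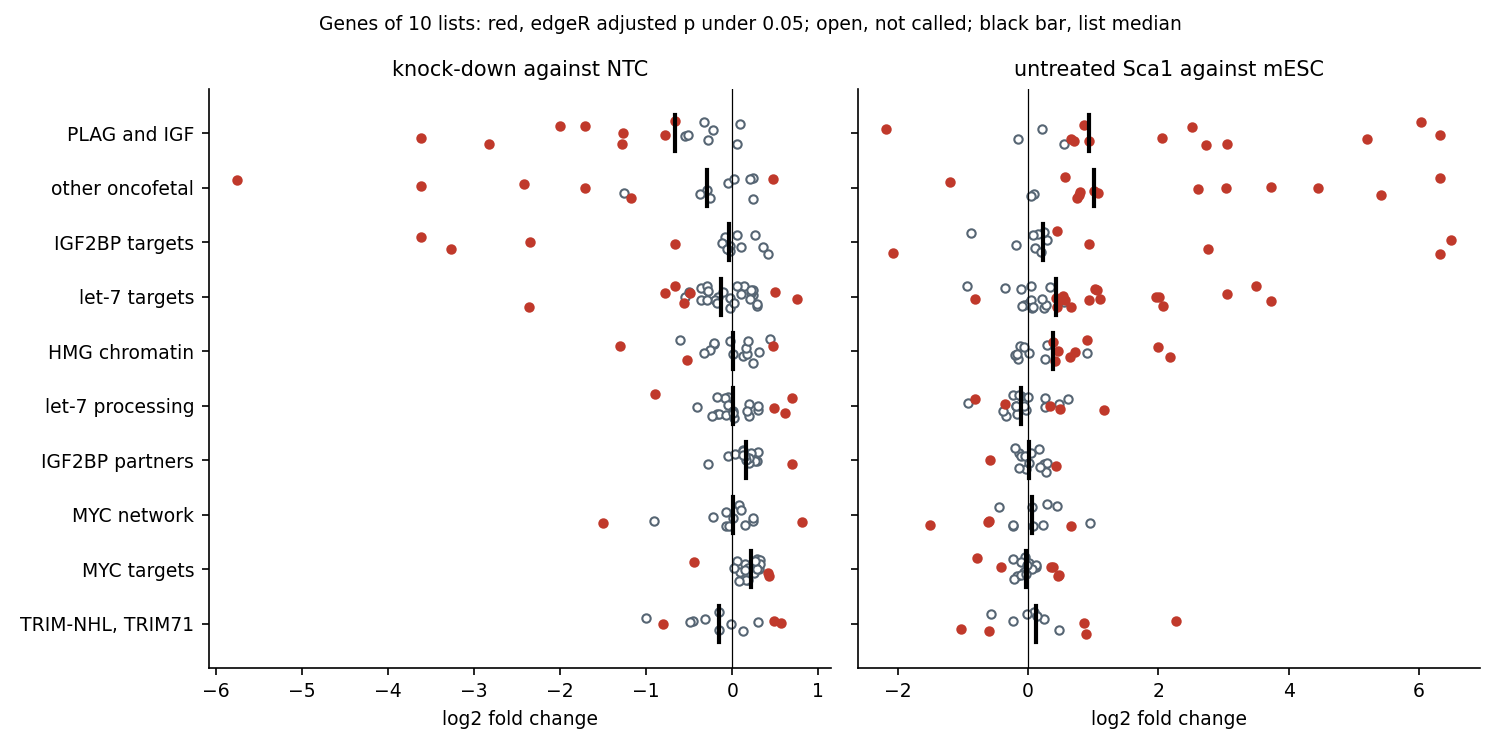
Log2 fold change (x axis) of every tested gene of 10 lists (rows), with knock-down set against NTC cells (left) and untreated Sca1 cells set against mESC (right); red points have an edgeR adjusted p under 0.05, open points do not, and black bars are list medians. The PLAG and IGF list has its median at -0.66 on the left and 0.94 on the right, while the MYC target list has its median at 0.22 on the left and -0.033 on the right.

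Further lists covered partners of HMGA, MYC and TRIM71. Their counts stand beside the same shares of all genes, which were 4.25% higher and 10.1% lower in knock-down against NTC cells. Of 17 other high-mobility-group and linker genes 8 were higher and none was lower among untreated Sca1 cells relative to mESC (median 0.39), such as the nucleosome-binding genes Hmgn5 (1.99 ± 0.24) and Hmgn3 (2.17 ± 0.43). In knock-down against NTC cells 1 was higher and 2 lower, among them Hmgn3 (-1.30 ± 0.39) and Smarce1 (-0.53 ± 0.16). Of 13 genes of the MYC network 1 was higher and 3 were lower among untreated Sca1 cells relative to mESC, such as Mxd3 (-1.51 ± 0.36), and 1 was higher and 1 lower in knock-down than in NTC cells. Of 20 MYC target genes 4 were higher and 2 were lower among untreated Sca1 cells relative to mESC (median -0.033), beside 18.7% of all genes higher and 16.8% lower. In knock-down against NTC cells 2 were higher and 1, Eif4a1 (-0.44 ± 0.11), lower, with a median of 0.22. Of 12 TRIM-NHL and TRIM71 target genes 3 were higher and 2 lower when untreated Sca1 cells were set against mESC, close to the shares of all genes. Among the higher ones was the cell cycle inhibitor gene Cdkn1a (0.86 ± 0.15). In knock-down against NTC cells 2 of the 12 were higher and 1 lower, among them Trim2 (0.56 ± 0.16).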

How the data were processed

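The 8 mouse libraries in 4 groups held poly(A) RNA and were read on a Genome Analyzer IIx. The authors deposited raw read counts, 1 whole number for each RefSeq transcript and library, with totals that differ between libraries. BWA 0.5.9, SAMtools 0.1.17 and edgeR 0.19 are named, without roles, per the submitters' processing notes. No genome build, counting program or strand setting is given in the sources used here.

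The table held 29614 transcripts of 23483 genes, and the transcript with the highest total stood for each gene. Genes with low counts were removed with filterByExpr, and TMM factors and tests came from edgeR 4.0.16 (R 4.3.3). The fit had 1 mean per group over all 8 libraries (4 residual degrees of freedom, common dispersion 0.0133) with robust quasi-likelihood F tests and Benjamini-Hochberg adjustment over 13966 genes, called at 0.05. A standard error is the log2 fold change divided by the root of its F statistic, and 95% intervals use the t quantile at the total degrees of freedom of the fit. Levels per length used the length of the matched GENCODE vM21 transcript, which for Trim71 runs past the RefSeq gene. Sequences came from RefSeq (GRCm38.p6) and GENCODE vM21 (GRCm38).

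The members and the lists were chosen with earlier results of these data known, so no p was computed over a list. Of 203 list entries 199 matched the table. Named genes were the members, Setd7, Ly6a, the 3 genes most like each member, and in each list up to 4 genes with the smallest p. Ago2, Ptgs2, Igf2r and Igfbp5 were named outside that rule to complete small counts, after their values were seen. Ccnd2 and Rictor were likewise named outside it, to show the range of the let-7 target list. Alternatives were RLE factors, library totals, no filter, a filter at 5 CPM, DESeq2 1.42.0, the 2 groups compared alone, a replicate block, a 1.5-fold threshold, summed transcripts and each library left out. Simulated counts with known fold changes were used to test the code.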

Additional observations from a re-analysis of the deposited data

How the results depend on the processing

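Over 924 values of members under other settings, 827 kept direction and side of the threshold. Members called numbered 5 in untreated Sca1 against mESC, 2 in knock-down against NTC, 1 in NTC against untreated Sca1, 4 in NTC against mESC, 6 in knock-down against mESC and 5 in knock-down against untreated Sca1. Against a 1.5-fold threshold these were 2, 1, 0, 2, 2 and 2, with 2041, 597, 15, 2093, 1263 and 561 genes called in all. With library totals only, NTC against untreated Sca1 had 0 and knock-down against untreated Sca1 had 3. Fitting only the 2 groups gave 3491 genes in untreated Sca1 against mESC, beside 4963. In knock-down against NTC it gave 5 members and 4414 genes, beside 1997. The added members were Lin28b (edgeR adjusted p = 0.00106), Igf2bp1 (0.0190) and Igf2bp2 (0.0146). DESeq2 called 1278 genes there and 1538 in knock-down against untreated Sca1, beside 2406, and without a filter 1148 genes were called in NTC against untreated Sca1, beside 696. Leaving out libraries gave 4 to 6, 1 to 3, 0 to 1, 3 to 4, 4 to 7 and 2 to 6 members in the 6 comparisons, and 3777 to 5695, 648 to 2826, 57 to 1517, 2906 to 5267, 1845 to 4271 and 799 to 3292 genes.

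With the description number as a replicate block, NTC against untreated Sca1 had 0 members and 1261 genes called, knock-down against NTC had 3 members and 2826 genes, and untreated Sca1 against mESC had 6 members and 5786 genes. Knock-down against untreated Sca1 had 4 members and 2533 genes, and Lin28b, at -0.57 without the replicate block, was -0.32 with it (edgeR adjusted p = 0.211). Libraries of the same number deviated together with r = 0.33 over genes in untreated Sca1 and mESC and 0.18 in knock-down and NTC, but only 2 pairs exist in each case and the labels do not say what the number marks. Numbers 1, 2 and 3 go with library codes 12, 34 and 56 throughout. The replicate block and the ratios within a code are therefore not separate checks.

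The 15 values that changed sign were all of uncalled differences. With library totals only these were Lin28b in NTC against untreated Sca1 (0.0053), Igf2bp1 in NTC against mESC (0.025), and Lin28a (0.074) and Igf2bp1 (0.032) in knock-down against untreated Sca1. Lin28a in the last comparison was 0.0021 without a filter and -0.068 to 0.054 with an untreated library left out. Lin28b in NTC against untreated Sca1 was 0.16 with the replicate block and -0.28 to 0.095 with an untreated library left out. Likewise Mycn was -0.30 to 0.017 there and -0.25 to 0.068 in knock-down against untreated Sca1. Igf2bp2 in untreated Sca1 against mESC was -0.0083 without untreated replicate 1 and -0.032 without mESC replicate 1. Igf2bp3 in NTC against mESC was -0.018 without NTC replicate 2 and -0.043 to 0.085 with an mESC library left out, and Trim71 in knock-down against mESC was -0.60 to 0.27. Library totals shifted the median of all genes by 0.12 in NTC against mESC and 0.11 in knock-down against mESC. They moved the share of calls that were higher to 18.4% against 29.7% in knock-down against NTC, to 96.5% against 77.9% in NTC against untreated Sca1, to 70.6% against 55.9% in NTC against mESC and to 64.0% against 52.1% in knock-down against mESC. The cause of these shifts was not tested.

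With 2 libraries a group, 4 residual degrees of freedom and a spread that differed between groups, small differences could not be detected, and each library left out altered the estimate of spread that all groups share. Lin28b and Hmga1, with the lowest counts, have the widest relative counting error.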
